A study of Danio rerio with 26 samples.

Results

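Endothelial cells line the blood vessels of the brain and, in most of them, form the blood-brain barrier. The genes described here are 10 that mark these cells: the adhesion and junction genes pecam1a, cdh5, cldn5a and cldn5b, the Vegf receptor genes kdrl, kdr and flt1, the angiopoietin receptor family genes tie1 and tek, and the lipid transporter gene mfsd2aa. They were chosen by symbol from the platform annotation as known endothelial genes, with earlier results of these data known. Each was read from the probe set whose mean over the 26 arrays was highest. All 10 had a probe set of exactly 1 symbol, out of 19260 genes measured in that way.

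Brain endothelium is sealed by adherens and tight junctions, carries selected nutrients by transporters, and keeps transport in vesicles low. Vegf receptors drive the growth and survival of vessels, and the receptors Tie1 and Tek control their stability. In the telencephalon of adult zebrafish the cell bodies of radial glia line the ventricle, and the parenchyma lies below this ventricular layer.

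Expression was measured on 26 microarrays of RNA from the adult telencephalon. All fish were of the reporter line Tg(gfap:gfp)mi2001, in which the gfap promoter, active in radial glia, drives green fluorescent protein, and were 3 to 6 months old. The dorsal subventricular zone (SVZ) had 3 arrays without a lesion, 3 at day 2 and 3 at day 7 after a stab wound. The medial zone, a medial neurogenic region, had 2 without a lesion, 4 at day 2 and 3 at day 7. The dorsal parenchyma had 2 without a lesion, 3 at day 2 and 3 at day 7. The labels call the arrays biological replicates but do not say how many animals each one holds, so p-values measure the spread between these samples. The labels' treatment text describes injection into the ventricle through a hole in the skull, while the series design names a stab wound.

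Levels below are log2 intensities as the authors normalized them, and a difference of 1 is a factor of 2 in intensity. The median of all probe sets on all arrays was 3.09, which serves here as a mark for weak signal, since a detection call was not used. Of the 10 genes, 8 lay above it on all 26 arrays, tek on 23 and cldn5b on 21. The level of one probe set cannot be set against that of another. In bulk tissue, fewer cells of a type and less RNA per cell cannot be told apart. The parenchyma was told apart from both ventricular regions, whose ranges overlapped, by the summed level of the radial glia list: its 13 measured genes had summed intensities of 8810 to 11559 in the dorsal SVZ, 9120 to 11847 in the medial zone and 2968 to 5051 in the parenchyma. The mean log2 level of the same genes did not overlap between the ventricular regions. It ran from 8.41 to 8.84 in the dorsal SVZ, 7.89 to 8.37 in the medial zone and 6.2 to 7.09 in the parenchyma.

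**Figure D1:**
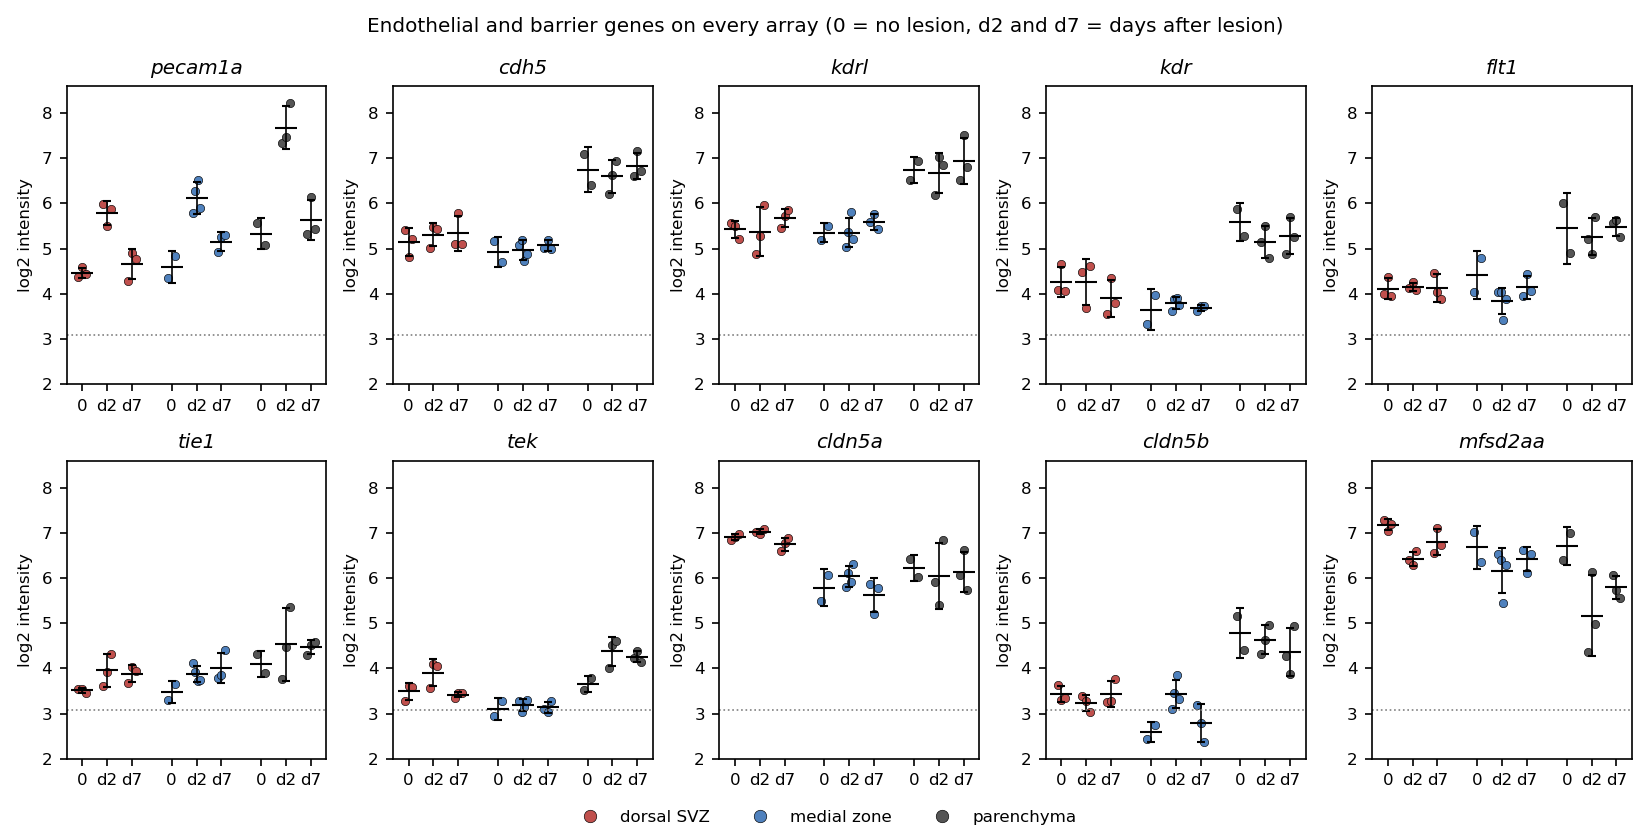
Log2 intensity of the 10 genes on each of the 26 arrays, by region (colour) and time (0, no lesion; d2 and d7, days 2 and 7 after lesion). Points are arrays, the horizontal mark is the group mean and the bar is the SD; the dotted line is the median of all probe sets, 3.09. The parenchyma arrays lie above all others for cdh5, kdrl, kdr, flt1 and cldn5b, and pecam1a is raised at day 2 in each region.

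The first comparison was between regions. Averaged over the 3 time groups, 8 of the 10 genes were lower in dorsal SVZ tissue than in parenchyma and 2, cldn5a and mfsd2aa, were higher. All 10 passed the test (limma, Benjamini-Hochberg adjusted p under 0.05 over all genes), where 19.2% of all genes did, 7.28% lower and 11.9% higher. In the medial zone against the parenchyma 8 were lower, 1 (mfsd2aa) was higher and 1 (cldn5a) did not pass, where 34.1% of all genes passed, 13.4% lower and 20.6% higher. The median log2 difference of the 10 genes was -1.21 for the dorsal SVZ and -1.11 for the medial zone, while the median of all genes was -0.01 and 0.00. Both comparisons share the parenchyma arrays. The fit used 1 estimate of the spread per gene for all 9 groups. For every gene of the 10 but kdr, the SD within groups was larger in the parenchyma than in both ventricular regions. For cldn5a it was 0.55, against 0.10 in the dorsal SVZ and 0.31 in the medial zone. The SEs of differences that involve the parenchyma may thus be too small.

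**Figure D2:**
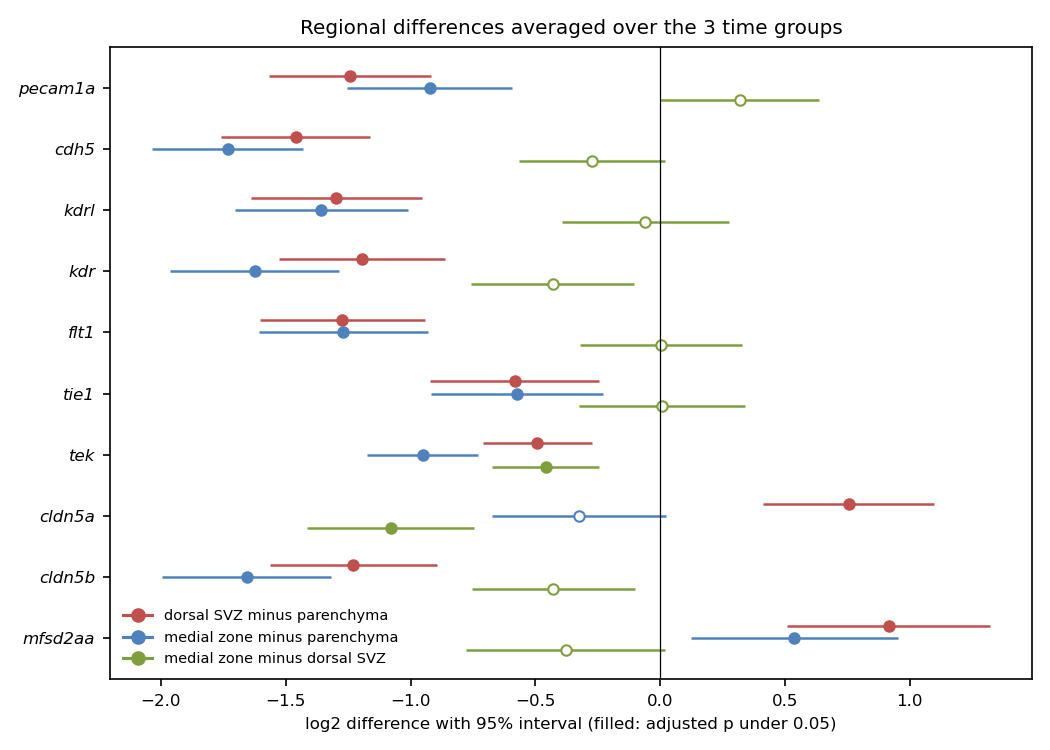
Log2 differences between regions for the 10 genes, averaged over the 3 time groups, with 95% intervals from limma (filled points, adjusted p under 0.05). Both ventricular regions lie between -1.73 and -0.49 against the parenchyma for 8 genes, cldn5a is at 0.76 in the dorsal SVZ and -0.32 in the medial zone, and mfsd2aa is above 0 in both.

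For cdh5, VE-cadherin, the cadherin of endothelial adherens junctions, the lowest, median and highest log2 levels were 4.81, 5.21 and 5.79 over 9 dorsal SVZ arrays, 4.70, 5.01 and 5.20 over 9 medial arrays, and 6.22, 6.68 and 7.16 over 8 parenchyma arrays. No ventricular array reached the lowest parenchyma array. The log2 difference from the parenchyma was -1.46 (SE 0.14, adjusted p = 4.39e-08) in the dorsal SVZ and -1.73 (SE 0.15, adjusted p = 2.67e-09) in the medial zone. A second, weaker cdh5 probe set gave smaller differences in the same direction, -1.08 (adjusted p = 7.15e-06 over all probe sets) for the dorsal SVZ and -0.97 (adjusted p = 1.88e-05) for the medial zone. The medial zone and the dorsal SVZ overlapped, and their difference of -0.27 was not called (adjusted p = 0.198).

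The levels of cldn5b, which encodes one of the 2 zebrafish claudin-5 proteins of tight junctions, ran from 3.04 to 3.76 over the dorsal SVZ arrays, from 2.38 to 3.85 over the medial arrays and from 3.87 to 5.17 over the parenchyma arrays. Its log2 difference was -1.23 in the dorsal SVZ (SE 0.16, adjusted p = 3.74e-06) and -1.66 in the medial zone (SE 0.16, adjusted p = 3.26e-08), both against the parenchyma. The highest medial array and the lowest parenchyma array nearly touched. Medial levels of cldn5b lay partly under the median of all probe sets, so the size of its medial difference may be understated.

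The other claudin-5 gene, cldn5a, did not share this pattern. In zebrafish embryos cldn5a is known from the neuroepithelium as well as from vessels. Its lowest, median and highest levels were 6.60, 6.90 and 7.08 in the dorsal SVZ, 5.20, 5.88 and 6.31 in the medial zone, and 5.40, 6.05 and 6.84 in the parenchyma. All dorsal SVZ arrays lay above all medial arrays, while the parenchyma overlapped both. It was 1.69-fold higher in dorsal SVZ tissue than in parenchyma (log2 0.76, SE 0.17, adjusted p = 0.00173), and lower in the medial zone than in the dorsal SVZ (log2 -1.08, SE 0.16, adjusted p = 2.5e-05). The medial zone minus the parenchyma gave -0.32 (95% interval -0.67 to 0.02, adjusted p = 0.141). It passed with quantile normalization again (-0.47, limma adjusted p = 0.0368) and without parenchyma day 2 replicate 2 (-0.43, limma adjusted p = 0.0353).

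The difference between both claudin-5 genes was tested within each array, as log2 cldn5a minus log2 cldn5b. It ran from 3.13 to 4.05 in the dorsal SVZ, from 2.06 to 3.41 in the medial zone and from 0.77 to 2.75 in the parenchyma. Of 9 such tests on 3 pairs of related genes, the dorsal SVZ minus the parenchyma gave 1.98 (exact two-sided permutation test within times, p = 0.00025, the smallest it can give, adjusted p = 0.00193). The medial zone minus the parenchyma gave 1.33 (exact permutation adjusted p = 0.005) and the medial zone minus the dorsal SVZ -0.65 (exact permutation adjusted p = 0.00514). The pairs were chosen after the values were seen. Levels of cldn5b lay near or under the median of all probe sets in both ventricular regions, at 3.04 to 3.76 in the dorsal SVZ and 2.38 to 3.85 in the medial zone. The part of this weak signal in the value of -0.65 was not tested.

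The Vegf receptor genes followed cdh5. The levels of kdrl, a main Vegf receptor gene of zebrafish endothelium, ran from 4.88 to 5.96 in the dorsal SVZ, from 5.03 to 5.80 in the medial zone and from 6.18 to 7.51 in the parenchyma. The levels of kdr, its close relative and the second Vegf receptor 2 gene of zebrafish, ran from 3.56 to 4.65 in the dorsal SVZ, from 3.33 to 3.97 in the medial zone and from 4.80 to 5.88 in the parenchyma. Those of flt1, whose product binds Vegf and in a soluble form holds it away from other receptors, ran from 3.88 to 4.47 in the dorsal SVZ, from 3.42 to 4.79 in the medial zone and from 4.88 to 6.01 in the parenchyma. For none of the 3 genes did a ventricular array overlap the parenchyma.

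The log2 differences of the dorsal SVZ from the parenchyma were -1.30 for kdrl (SE 0.17), -1.20 for kdr (SE 0.16) and -1.27 for flt1 (SE 0.16), with adjusted p-values of 2.36e-06, 5.58e-06 and 1.96e-06 from limma. Those of the medial zone were -1.36 for kdrl (SE 0.17), -1.62 for kdr (SE 0.16) and -1.27 for flt1 (SE 0.16), with adjusted p-values of 9.58e-07, 4.44e-08 and 1.65e-06. Within arrays, log2 kdr minus log2 kdrl differed between the medial zone and the parenchyma by -0.27 and between the dorsal SVZ and the parenchyma by 0.10 (exact permutation adjusted p = 0.261 and 0.647). The medial zone minus the dorsal SVZ gave -0.37 (exact permutation p = 0.0367, adjusted p = 0.0571).

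The angiopoietin receptor family differed less from the parenchyma than the Vegf receptor genes did. The levels of tie1, an orphan receptor that modifies Tek signals, ran from 3.45 to 4.33 in the dorsal SVZ, from 3.31 to 4.40 in the medial zone and from 3.76 to 5.37 in the parenchyma, with overlap. Its differences from the parenchyma were -0.58 in the dorsal SVZ (SE 0.16, adjusted p = 0.013; 0.0571 without unlesioned parenchyma replicate 1) and -0.57 in the medial zone (SE 0.17, adjusted p = 0.01). The levels of tek, which encodes the receptor of angiopoietins, ran from 3.28 to 4.1 in the dorsal SVZ, from 2.94 to 3.31 in the medial zone and from 3.53 to 4.6 in the parenchyma, so that only the medial zone stood clear of the parenchyma.

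The tek difference from the parenchyma was -0.49 in the dorsal SVZ (SE 0.11, adjusted p = 0.00137) and -0.95 in the medial zone (SE 0.11, adjusted p = 2.4e-07). Besides cldn5a, tek was the other gene of the 10 called between the ventricular regions, with -0.46 in the medial zone against the dorsal SVZ (SE 0.10, adjusted p = 0.00217). In that comparison 2 of the 10 genes were lower and 8 did not pass, where 19.6% of all genes passed and 8.27% were lower. The count of 2 is thus near the share of all genes that passed. Within arrays, log2 tek minus log2 tie1 was lower by 0.47 in the medial zone than in the dorsal SVZ (-0.47, exact permutation p = 0.000429, adjusted p = 0.00193). The medial zone minus the parenchyma gave -0.38 (exact permutation p = 0.0381, adjusted p = 0.0571) and did not pass. The dorsal SVZ minus the parenchyma gave 0.09 (exact permutation adjusted p = 0.647). Medial tek levels lay close to the median of all probe sets, so the size of the medial tek differences may be understated.

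In the averages over times the transporter gene mfsd2aa ran the other way. Mfsd2a carries lysophospholipids with docosahexaenoic acid into the brain, and in mice it keeps vesicle transport across the endothelium low. Its lowest, median and highest levels were 6.29, 6.73 and 7.29 in the dorsal SVZ, 5.44, 6.41 and 7.02 in the medial zone and 4.37, 5.91 and 7.00 in the parenchyma, with overlap between all 3 regions. It was higher by 0.92 in the dorsal SVZ (SE 0.20, adjusted p = 0.00141) and by 0.54 in the medial zone (SE 0.20, adjusted p = 0.0409) than in the parenchyma. In 10 fits with other settings the medial call held in 4, with values of 0.367 to 0.605 (limma adjusted p up to 0.149). The medial call held in 6 of 17 fits that left out 1 array, with values of 0.40 to 0.70 and adjusted p-values up to 0.156. These averages include the lesioned groups. Without a lesion the differences of mfsd2aa from the parenchyma were 0.48 in the dorsal SVZ and -0.02 in the medial zone, neither called.

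The lowest, median and highest levels of pecam1a, an adhesion molecule at contacts between endothelial cells that mammals also carry on leukocytes and platelets, were 4.28, 4.77 and 5.99 in the dorsal SVZ, 4.35, 5.30 and 6.53 in the medial zone and 5.09, 5.86 and 8.23 in the parenchyma. Its averaged differences from the parenchyma were -1.24 (SE 0.16, adjusted p = 2.07e-06) in the dorsal SVZ and -0.92 (SE 0.16, adjusted p = 8.3e-05) in the medial zone. The regions overlapped, and the day 2 arrays were the highest in each.

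Over all arrays without regard to time, 5 of the 10 genes did not overlap between the dorsal SVZ and the parenchyma and were lower in the SVZ (cdh5, kdrl, kdr, cldn5b and flt1), as 1.17% of all genes were. In the medial zone these 5 and tek lay below the parenchyma, 6 of 10, against 2.13% of all genes. Between the medial zone and the dorsal SVZ only cldn5a did not overlap, 1 of 10 against 2.34% of all genes.

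The same differences were examined without a lesion, with 2 to 3 arrays per group. In the dorsal SVZ against the parenchyma 5 of the 10 genes were lower, where 6.69% of all genes were called and 1.81% were lower. These were cdh5 (-1.60), kdrl (-1.32), kdr (-1.32), cldn5b (-1.35) and flt1 (-1.35), with adjusted p-values of 0.000329 to 0.00838. In the medial zone the same 5 genes were lower, where 10.5% of all genes were called and 3.26% were lower, with log2 differences of -1.82 for cdh5, -1.39 for kdrl, -1.94 for kdr, -2.20 for cldn5b and -1.04 for flt1. In 10 fits with other settings the medial flt1 call held in 5 (limma adjusted p up to 0.234). The dorsal SVZ call of flt1 held in 9 of 10 (adjusted p up to 0.0589). The flt1 differences rested on unlesioned parenchyma replicate 1: without it they were -0.79 in the dorsal SVZ (adjusted p = 0.228) and -0.49 in the medial zone (adjusted p = 0.518). Without the same array the dorsal SVZ calls of kdr (-1.03, adjusted p = 0.147) and cldn5b (-0.97, adjusted p = 0.161) were also lost. Without unlesioned parenchyma replicate 2 those of kdrl were lost in the dorsal SVZ (-1.11, adjusted p = 0.102) and in the medial zone (-1.18, adjusted p = 0.0766). Without unlesioned medial replicate 1 the medial values were -1.23 for kdrl (adjusted p = 0.0853) and -0.67 for flt1 (adjusted p = 0.371).

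Without a lesion, pecam1a was not called in the dorsal SVZ (-0.86, 95% interval -1.47 to -0.26, adjusted p = 0.0808) or the medial zone (-0.74, adjusted p = 0.156). The dorsal SVZ difference of pecam1a passed with quantile normalization again (-1.05, limma adjusted p = 0.0394). For mfsd2aa the unlesioned arrays were at 7.29, 7.05 and 7.20 in the dorsal SVZ, at 7.02 and 6.35 in the medial zone and at 6.41 and 7.00 in the parenchyma. Its unlesioned differences from the parenchyma, 0.48 in the dorsal SVZ (95% interval -0.28 to 1.24) and -0.02 in the medial zone (-0.84 to 0.81), were smaller than the averaged ones and not called. Between the unlesioned medial zone and dorsal SVZ, cldn5a was lower by 1.12 on the log2 scale (-1.12, adjusted p = 0.038), 1 of 10 genes where 4.15% of all genes were called and 1.79% were lower. That call was lost without each of the 5 arrays in turn, with values of -1.41 to -0.83.

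Other vascular genes, listed with earlier results of these data known, were set beside the 10. Of 40 other endothelial genes measured, 9 of them with a mean below the median of all probe sets, 11 were lower and 5 higher in dorsal SVZ tissue than in parenchyma and 24 did not pass, where 7.28% of all genes were lower and 11.9% higher. The count of higher genes is thus near the share of all genes. The median of the list was -0.20. The apelin receptor gene aplnrb (-1.90) and the endothelial lectin gene clec14a (-1.10) were lower, while the sphingosine phosphate receptor gene s1pr1 (4.2), and plvapa (1.80), related to a protein of endothelial fenestrae in mammals, were higher. In the medial zone 15 were lower and 4 higher, where 13.4% of all genes were lower and 20.6% higher, with a median of -0.30; sox7 (-1.17) and dusp5 (-1.90) were lower and s1pr1 (4.08) and notch1b (1.54) higher. The summed level of the radial glia list was also higher in both ventricular regions, and its part in these differences and in those of cldn5a and mfsd2aa was not tested.

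**Figure D3:**
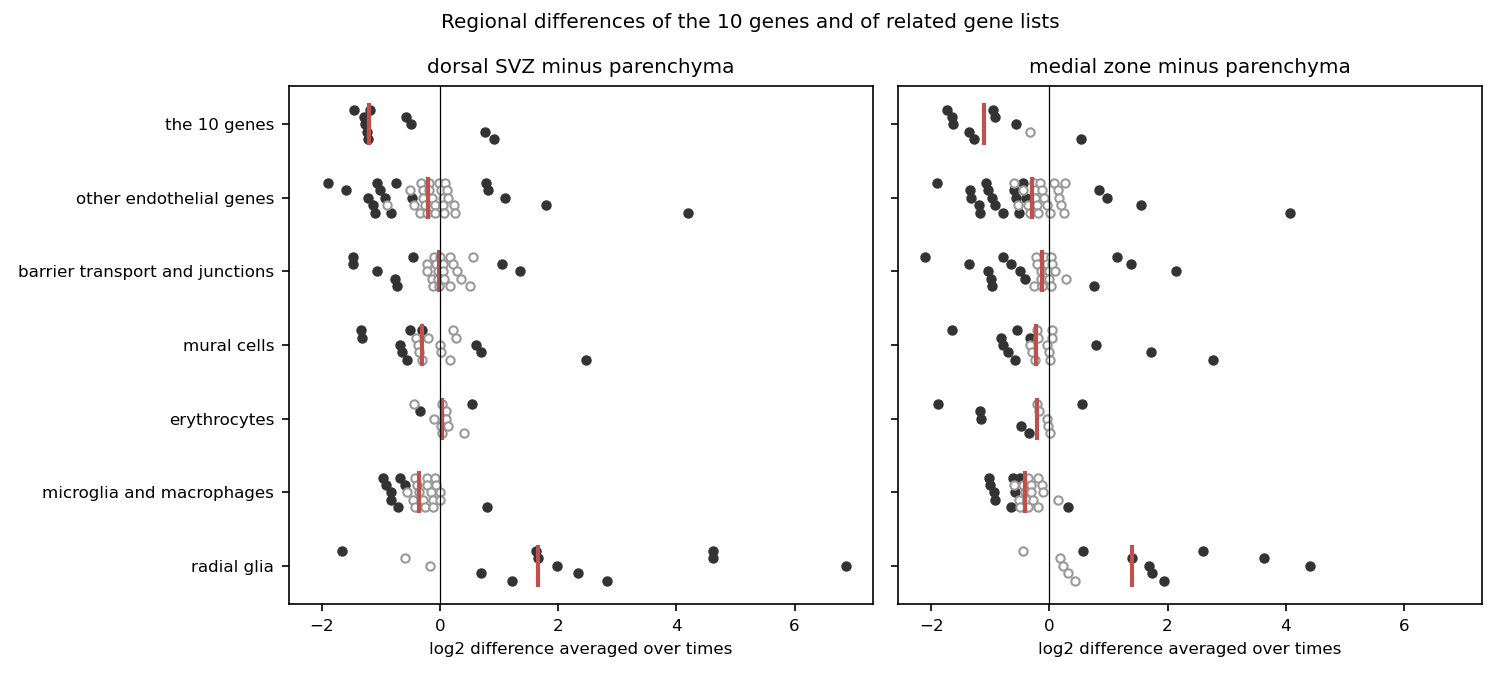
Log2 difference from the parenchyma, averaged over times, of each measured gene in 7 lists, in the dorsal SVZ and in the medial zone. Points are genes (filled, adjusted p under 0.05; open, not passed) and red bars are list medians, which lie at -1.21 and -1.11 for the 10 genes and at -0.20 and -0.30 for the other endothelial genes.

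Of 28 measured genes of barrier transport and junctions, 6 were lower and 2 higher in dorsal SVZ tissue than in parenchyma, and 9 were lower and 4 higher in the medial zone. The shares of higher genes lay below those of all genes, 11.9% and 20.6%, and the shares of lower genes above 7.28% and 13.4%. The glucose transporter gene slc2a1a (-1.47 and -1.36 in the dorsal SVZ and the medial zone) and the drug efflux gene abcg2a (-1.47 and -2.11) were lower in both. The other glucose transporter gene of this family, slc2a1b, ran the opposite way and was higher in both, by 1.04 and 1.15. The efflux gene abcb4 (-1.06 and -1.04) and the thyroid hormone transporter gene slco1c1 (-0.74 and -1.0) were also lower in both. As with mfsd2aa in these averages over times, its paralog mfsd2ab was higher in both, by 1.35 and 2.14. Without a lesion the means of mfsd2ab were 6.26 in the dorsal SVZ, 6.93 in the medial zone and 4.61 in the parenchyma. The unlesioned differences of mfsd2aa from the parenchyma, 0.48 and -0.02, were not called.

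Of 13 genes of Vegf and angiopoietin ligands and co-receptors, 5 were higher and 3 lower in the dorsal SVZ, and 5 higher and 3 lower in the medial zone, both against the parenchyma, where 11.9% and 20.6% of all genes were higher and 7.28% and 13.4% lower. The co-receptor gene nrp1a (1.34 in the dorsal SVZ and 1.93 in the medial zone) and the ligand gene vegfd (0.58 and 1.52) were higher in both. Of 17 genes of the Wnt control of barrier vessels, 4 were higher and 1 lower in the dorsal SVZ and 5 higher and 5 lower in the medial zone. Of these counts, the 1 lower in the dorsal SVZ is near the share of all genes. The ligand genes wnt7aa (1.49 and 1.95) and wnt7bb (2.92 and 2.48) were higher in both, the Norrin gene ndp was higher in the medial zone (2.80), and the Wnt-responsive transcription factor gene lef1 was lower in both (-0.98 and -1.19).

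Mural cells, the pericytes and smooth muscle cells around vessels, were read from 20 genes, of which 7 were lower and 3 higher in each ventricular region than in the parenchyma, where 7.28% and 13.4% of all genes were lower and 11.9% and 20.6% higher in the dorsal SVZ and the medial zone. The pericyte gene ndufa4l2a was lower in both (-1.34 in the dorsal SVZ and -1.64 in the medial zone), while pdgfrb, the receptor gene that commonly marks pericytes, was higher in both (0.70 and 0.78). The smooth muscle actin gene acta2 was lower in the dorsal SVZ (-1.32; -0.01 in the medial zone, not called), and the pericyte channel gene kcnj8 in the medial zone (-0.70; -0.35 in the dorsal SVZ, adjusted p = 0.0519). The receptor gene notch3 was higher (2.47 and 2.76). The counts of 3 higher genes are near the shares of all genes. The part of the higher radial glia level in the higher genes of the mural list was not tested. Of 11 erythrocyte genes 1 was lower and 1 higher in the dorsal SVZ, and 5 were lower and 1 higher in the medial zone, among them alas2 (-1.16) and hbaa2 (-1.89). The dorsal SVZ count is near the 19.2% of all genes called.

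The second comparison was between lesioned and unlesioned tissue at day 2. In the parenchyma 2 of the 10 genes changed, pecam1a upward and mfsd2aa downward, where 2.04% of all genes were called, 1.7% higher and 0.332% lower. The 1 gene of the 10 called in the dorsal SVZ (0.27% of all genes called, 0.182% higher) and in the medial zone (0.493%, 0.379% higher) was pecam1a. Averaged over the regions, pecam1a and tek rose and mfsd2aa fell, where 3.9% of all genes were called, 2.73% higher and 1.17% lower. The averaged comparison holds the same arrays as the 3 regional ones.

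In the parenchyma pecam1a was at 7.33, 7.48 and 8.23 at day 2 and at 5.57 and 5.09 without a lesion. The dorsal SVZ arrays were at 5.99, 5.50 and 5.88 at day 2 and at 4.37, 4.59 and 4.44 without a lesion. The medial arrays were at 5.78, 6.28, 6.53 and 5.90 at day 2 and at 4.35 and 4.84 without a lesion. In each region all lesioned arrays lay above all unlesioned ones, as for 12.8%, 7.96% and 8.3% of all genes in the parenchyma, the dorsal SVZ and the medial zone.

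The rise of pecam1a was 5.09-fold in the parenchyma (log2 2.35, SE 0.29, adjusted p = 2.72e-05), 2.50-fold in the dorsal SVZ (log2 1.32, SE 0.26, adjusted p = 0.0247) and 2.89-fold in the medial zone (log2 1.53, SE 0.28, adjusted p = 0.00917). Averaged over regions it was 3.32-fold (log2 1.73, 95% interval 1.40 to 2.06, adjusted p = 1.99e-07). The parenchyma and averaged calls held without each array in turn. The dorsal SVZ call held in 1 of 6 such fits, the one without day 2 replicate 2 (values of 1.22 to 1.47, adjusted p up to 0.135), and the medial call was lost without unlesioned medial replicate 1 (1.28, adjusted p = 0.171). No difference in the rise between regions passed the test of the difference itself: the dorsal SVZ minus the parenchyma gave -1.02 (95% interval -1.83 to -0.21, adjusted p = 0.561) and the medial zone minus the parenchyma -0.82 (-1.65 to 0.01, adjusted p = 0.695), and none of the 10 genes was called in these tests, where 0.0519% and 0.0104% of all genes were.

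**Figure D4:**
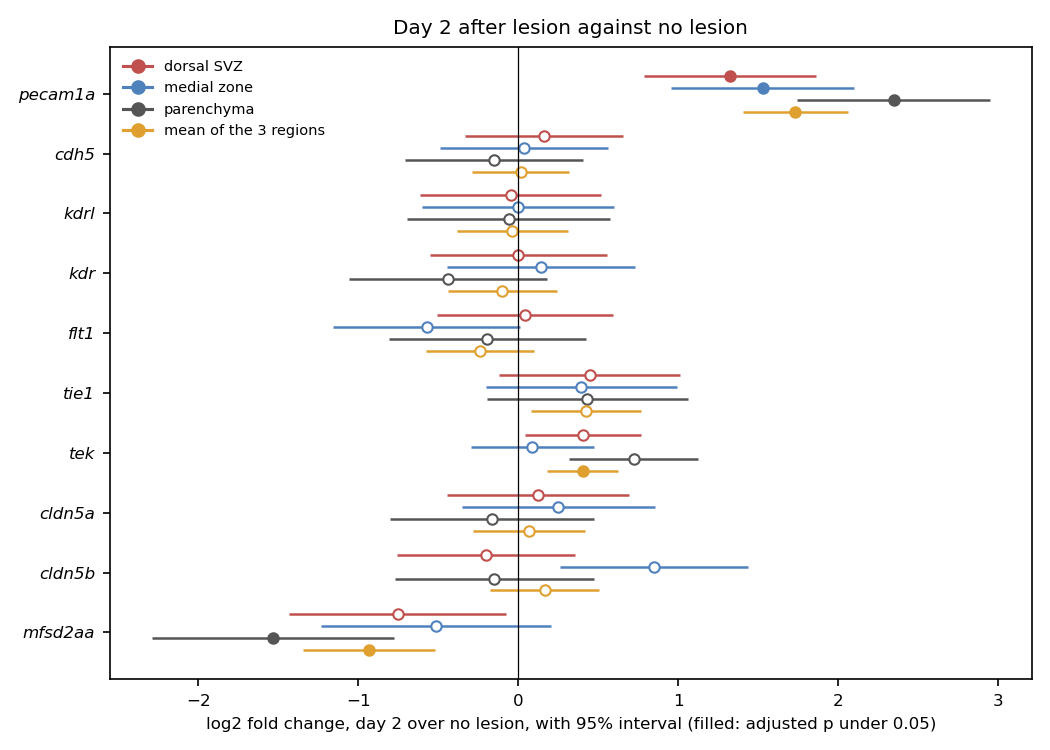
Log2 fold change at day 2 over no lesion of the 10 genes in the 3 regions and averaged over them, with 95% intervals from limma (filled points, adjusted p under 0.05). The pecam1a values lie between 1.32 and 2.35 and those of mfsd2aa between -1.54 and -0.51, while the averaged values of cdh5, kdrl, kdr, flt1, cldn5a and cldn5b lie between -0.24 and 0.17.

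Markers of microglia and macrophages, the phagocytes of the brain, rose at day 2 as pecam1a did. Of 25 measured genes of that list, 4 of them with a mean below the median of all probe sets, 16 were higher at day 2 in the parenchyma, 9 in the dorsal SVZ and 9 in the medial zone, and none lower. Of all genes, 1.7%, 0.182% and 0.379% were higher in these regions. The median log2 fold changes of the list were 2.21, 0.90 and 0.96. The summed intensity of the list was 7311 to 11749 at day 2 and 1266 to 1555 without a lesion in the parenchyma, 3228 to 5197 and 1504 to 1879 in the dorsal SVZ, and 3584 to 4595 and 1266 to 1584 in the medial zone. The macrophage gene mpeg1.1 rose by 4.14 in the parenchyma, 2.41 in the dorsal SVZ and 2.06 in the medial zone, all on the log2 scale. The part of these cells in the rise of pecam1a was not tested.

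Among thrombocyte genes, itga2b and gp9, which define that cell type, had means of 2.87 and 2.87 at day 2 and of 3.34 and 2.53 without a lesion in the parenchyma, near or under the median of all probe sets, and did not pass (adjusted p = 0.265 and 0.41). The shared blood cell gene plek rose (log2 2.39, limma adjusted p = 0.000288). It was the 1 gene called on the same list of 10, where 1.7% of all genes were higher. The pan-leukocyte gene ptprc was at 3.54 ± 1.37 at day 2 (SD, n = 3) and at 2.80 ± 0.22 without a lesion (SD, n = 2) in the parenchyma and did not pass (limma adjusted p = 0.538). At day 2 and without a lesion ptprc ran from 2.98 to 3.73 and 2.56 to 2.61 in the dorsal SVZ. Its medial levels were 2.45 to 3.67 and 2.34 to 2.40. Those of gp9 were 2.79 to 2.93 and 2.34 to 2.55 in the dorsal SVZ. In the medial zone they were 2.27 to 2.54 and 2.52 to 2.59. Arrays of itga2b overlapped in both regions. These levels are weak.

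**Figure D5:**
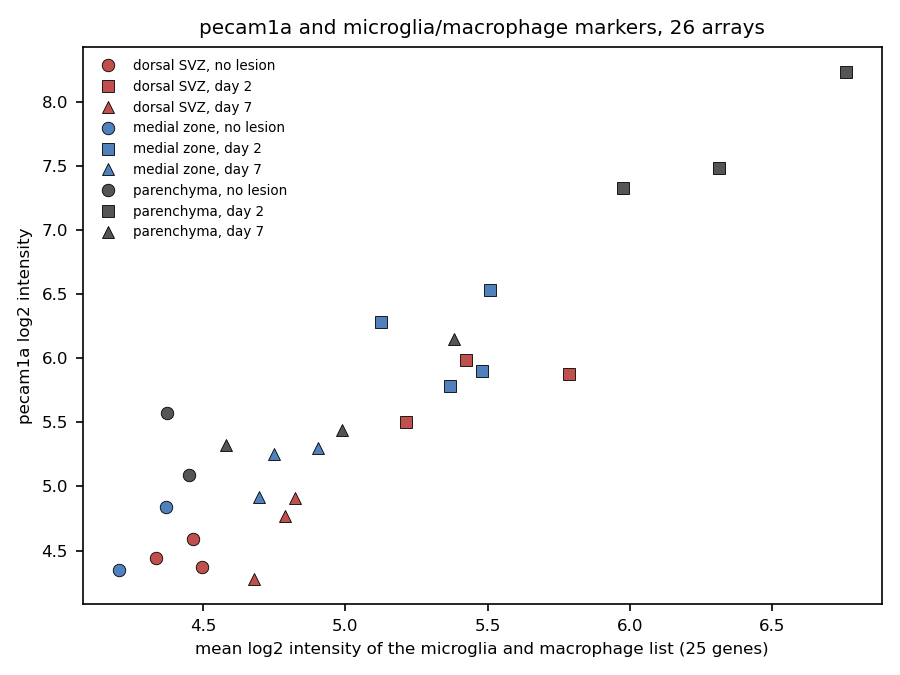
Log2 intensity of pecam1a (vertical) against the mean log2 intensity of the 25 measured microglia and macrophage genes (horizontal) on each of the 26 arrays, by region (colour) and time (shape). The 3 parenchyma day 2 arrays lie highest on both axes, and within each region all day 2 arrays lie above the unlesioned arrays on both.

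The fall of mfsd2aa was seen in the parenchyma at 4.37, 6.14 and 4.99 at day 2 and at 6.41 and 7.00 without a lesion. The dorsal SVZ arrays were at 6.40, 6.29 and 6.59 at day 2 and at 7.29, 7.05 and 7.20 without a lesion. The medial arrays were at 6.53, 6.41, 5.44 and 6.29 at day 2 and at 7.02 and 6.35 without a lesion. The groups did not overlap in the parenchyma and the dorsal SVZ, as for 12% and 6.09% of all genes in that direction, and overlapped in the medial zone.

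The log2 fold change of mfsd2aa was -1.54 in the parenchyma (2.90-fold lower, SE 0.37, adjusted p = 0.0239), -0.76 in the dorsal SVZ (SE 0.33, adjusted p = 0.64) and -0.52 in the medial zone (SE 0.35, adjusted p = 0.786). These SEs come from the spread shared by all groups. Within groups the SD of mfsd2aa was 0.62 in the parenchyma, 0.20 in the dorsal SVZ and 0.43 in the medial zone, so the parenchyma SE may be too small. Averaged over regions the log2 fold change was -0.94 (1.91-fold lower, SE 0.20, adjusted p = 0.00672), a call that held in all 17 fits without 1 of the arrays compared. The parenchyma call alone held in 1 of 5 such fits, the one without day 2 replicate 2, with values of -2.02 to -1.14 and adjusted p-values up to 0.197. In 10 fits with other settings the parenchyma call of mfsd2aa held in 6 (limma adjusted p up to 0.4). Of the 28 measured genes of barrier transport and junctions, slc3a2a, the heavy chain of amino acid transporters, rose in the parenchyma (log2 3.23, limma adjusted p = 0.000271). The transferrin receptor gene tfr1b fell in the dorsal SVZ (log2 -2.12, limma adjusted p = 0.0292). Each was the 1 gene of the 28 called in its region, where 2.04% and 0.27% of all genes were called. The parenchyma count is near that share.

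For tek the parenchyma arrays were at 4.02, 4.52 and 4.6 at day 2 and at 3.53 and 3.79 without a lesion, with no overlap, as for 12.8% of all genes. The log2 fold change of 0.72 (SE 0.20) did not pass (adjusted p = 0.0566), and passed in 4 other fits (adjusted p = 0.0118 to 0.0476). It was 0.41 and 0.09 in the dorsal SVZ and the medial zone. Averaged over regions tek rose 1.32-fold (log2 0.40, SE 0.11, adjusted p = 0.0315), a call that held in 8 of 17 fits without 1 array. In 10 fits with other settings the averaged tek call held in 6 (limma adjusted p up to 0.0811). The averaged value of tie1 was of like size to that of tek, 0.42 (95% interval 0.08 to 0.77), and was not called (adjusted p = 0.191; 0.0265 without parenchyma day 2 replicate 1).

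The other 6 genes were not called at day 2 in any region or in the average. The averaged log2 fold changes were 0.01 for cdh5 (95% interval -0.29 to 0.32), -0.04 for kdrl (-0.38 to 0.31), -0.10 for kdr (-0.44 to 0.24), -0.24 for flt1 (-0.58 to 0.10), 0.07 for cldn5a (-0.28 to 0.42) and 0.17 for cldn5b (-0.18 to 0.50). The averaged intervals of cdh5 and kdrl thus reach no further than 0.38 on the log2 scale in either direction. In the parenchyma alone they were wider, -0.707 to 0.402 for cdh5 and -0.694 to 0.575 for kdrl. The largest regional value of these 6 was cldn5b in the medial zone, with 0.85 (adjusted p = 0.287). Its medial arrays were at 3.11, 3.45, 3.85 and 3.32 at day 2 and at 2.43 and 2.74 without a lesion, and both unlesioned arrays lay under the median of all probe sets. Of the 40 other endothelial genes, 1 was called in the parenchyma, klf2a, a flow-responsive transcription factor gene, which rose (log2 1.15, limma adjusted p = 0.0307). That count is near the share of all genes there, 2.04% called and 1.7% higher. None was called in the dorsal SVZ or the medial zone, where 0.27% and 0.493% of all genes were.

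By day 7 none of the 10 genes was called against unlesioned tissue in any region by limma, where 0.125% of all genes were called in the parenchyma and 0% in the dorsal SVZ and the medial zone. At an unadjusted p under 0.05 there were 2 of the 10 genes in the parenchyma, tek and mfsd2aa, against 10.8% of all genes, and 0 in the dorsal SVZ and the medial zone, against 4.45% and 4.07%. In the average, where 0.0935% of all genes were called, no gene of the 10 was called, and 3 (pecam1a, tie1 and mfsd2aa) were under that unadjusted level, against 8.68% of all genes. These comparisons share the unlesioned arrays with those at day 2.

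The pecam1a arrays at day 7 were at 5.32, 6.15 and 5.44 in the parenchyma, 4.28, 4.91 and 4.77 in the dorsal SVZ and 4.92, 5.25 and 5.30 in the medial zone. They overlapped the unlesioned arrays in the parenchyma and the dorsal SVZ and lay above them in the medial zone. Against no lesion the log2 fold changes of pecam1a were 0.30, 0.19 and 0.56 in the parenchyma, the dorsal SVZ and the medial zone (adjusted p = 0.782, 1 and 1).

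Day 7 was also set against day 2. In the parenchyma pecam1a was 4.13-fold lower at day 7 (log2 -2.05, SE 0.26, adjusted p = 5.82e-05), the 1 called gene of the 10, where 1.15% of all genes were called and 1.03% were lower. In the dorsal SVZ (-1.14, adjusted p = 0.242) and the medial zone (-0.96, adjusted p = 0.0909) it was not called, where 0.0519% and 0.421% of all genes were. Averaged over regions it was lower by 1.38 on the log2 scale (-1.38, SE 0.15, adjusted p = 5.55e-06), again the 1 called gene of the 10, where 1.79% of all genes were called and 1.4% were lower. At day 7 the microglia and macrophage list summed to 1867 to 4522 in the parenchyma, against 1266 to 1555 without a lesion. In the dorsal SVZ it summed to 2042 to 2655 against 1504 to 1879, and in the medial zone to 2351 to 3013 against 1266 to 1584. The sums thus stayed above the unlesioned arrays in each region, but single genes of the list need not follow its sum. In the parenchyma csf1rb of this list ran from 4.37 to 5.30 at day 7 and from 4.69 to 4.71 without a lesion. Its dorsal SVZ levels were 4.09 to 4.40 and 3.87 to 4.54. It thus overlapped the unlesioned arrays in the parenchyma and the dorsal SVZ, as pecam1a did. Whether pecam1a and these cells part by day 7 was not tested. None of the 25 measured genes of the list was called at day 7 against no lesion in any region. Of all genes, 0.125% were called there in the parenchyma and 0% in the dorsal SVZ and the medial zone.

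For mfsd2aa the day 7 arrays were at 6.08, 5.74 and 5.56 in the parenchyma, 6.56, 7.12 and 6.73 in the dorsal SVZ and 6.62, 6.12 and 6.53 in the medial zone. The parenchyma arrays stayed below both unlesioned ones, but the difference of -0.91 (95% interval -1.66 to -0.15) did not pass (adjusted p = 0.354). The values in the dorsal SVZ and the medial zone were -0.38 and -0.26. For tek the parenchyma arrays at 4.24, 4.39 and 4.15 lay above the unlesioned ones, with 0.60 (adjusted p = 0.231).

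The order of the 9 group means describes the same arrays again. Where all parenchyma arrays lay above the others, the place of their groups follows from that. For cdh5, kdrl, kdr, flt1 and cldn5b the 3 parenchyma groups came first, with means of 6.60 to 6.83, 6.68 to 6.95, 5.15 to 5.59, 5.26 to 5.49 and 4.36 to 4.79, and no array of the third group overlapped the fourth. Among the 6 ventricular groups of these genes each neighbour in the order overlapped the next. For cldn5a the 3 dorsal SVZ groups came first, with means of 7.03 at day 2, 6.91 without a lesion and 6.75 at day 7, and stood clear of the unlesioned parenchyma at 6.22. For tek the parenchyma groups of day 2 (4.38) and day 7 (4.26) came first and the 3 medial groups (3.11 to 3.2) last. For tie1 the means ran from 3.48 in the unlesioned medial zone to 4.54 in the parenchyma at day 2, and of neighbours in that order only the medial zone at day 2 and the unlesioned dorsal SVZ did not overlap.

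For pecam1a the parenchyma at day 2 (7.68 ± 0.48, SD, n = 3) led with no overlap, the medial zone (6.12 ± 0.34, n = 4) and the dorsal SVZ (5.79 ± 0.26, n = 3) at day 2 followed, and the unlesioned dorsal SVZ (4.47 ± 0.11, n = 3) was last. For mfsd2aa the unlesioned dorsal SVZ led (7.18 ± 0.12, n = 3), the parenchyma at day 2 was last (5.16 ± 0.90, n = 3), and all neighbours in the order overlapped.

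Patterns were also compared between genes, as a description. Over the 9 group means, cdh5 and kdrl had a Pearson r of 0.99, cdh5 and kdr 0.97, and cdh5 and flt1 0.96, points that share the regions. Over the deviations of the 26 arrays from their group means the same pairs had 0.25, 0.09 and 0.26. The pair of tie1 and tek had 0.79 over group means and 0.60 over deviations, and cldn5a and cldn5b had 0.07 over both. Over group means pecam1a and mfsd2aa had -0.91, and -0.27 over deviations.

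Among 12842 genes with a mean above the median of all probe sets and a symbol that is no clone name, those most like each gene over the 9 group means were zcchc24, gtf2h2 and vstm4b for cdh5 (each 0.99), and pbxip1b, cxcl12b and cdh5 for kdrl (each 0.99). For pecam1a they were the microglia and macrophage gene csf1rb (0.99), lyn and gpr141 (each 0.98). For flt1 galr2b was first (0.99), for kdr atp2a2a (0.98), for tek the pericyte channel gene kcnj8 (0.99), for tie1 l3mbtl3 (0.96), for cldn5b btbd3a (0.97), for cldn5a nhsl1b (0.98) and for mfsd2aa rxrbb (0.96). Over the deviations of the 26 arrays the highest were aagab for mfsd2aa (0.88), ch25h for pecam1a (0.86) and robo4, a gene of the other endothelial list, for tie1 (0.84). These values were picked as the highest of many and carry no test.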

How the data were processed

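Total RNA was amplified and labelled with biotin, and per the labels' protocols the kits were for very small amounts of RNA. The deposited table held log2 intensities, which the authors computed by RMA in Affymetrix Expression Console 1.2, per the submitters' processing notes; RMA corrects background, normalizes by quantiles and summarizes each probe set. The genome build is not given in the sources used here, so no positions are printed. The table had 75212 probe sets without missing values, and array medians lay between 3.01 and 3.21. Scanner files were not used here, so no detection call or scan batch could be examined. With 2 to 4 arrays in a group, their number limits the precision.

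By the platform annotation 20806 probe sets carried 1 symbol, 855 several and 53551 none. Of the first, 20323 were found by Entrez identifier in a current zebrafish gene table, and 1 symbol changed. The probe set of highest mean stood for each of 19260 genes, of which 1365 had several; of the 10 genes described, cdh5 had 2 probe sets.

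The linear model had a mean for each of the 9 groups and used all 26 arrays (lmFit, contrasts.fit and eBayes of limma, version 3.58.1, under R 4.3.3); it was tested on simulated data. A call means an adjusted p under 0.05 by Benjamini-Hochberg over all genes of a comparison; every adjusted p is from this fit unless said otherwise. Averages over times or regions weight groups equally. Differences within pairs of related genes were tested by exact two-sided permutation of the region labels within times, adjusted over 9 tests; these were added after the values were seen. Other steps ran in python 3.11.15 with numpy 2.4.6, pandas 2.3.3 and, for figures, matplotlib 3.10.9.

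The genes, the lists and the rules were chosen with earlier results of these data known. Named genes of other lists are called genes, up to 4 by smallest adjusted p in a comparison, besides itga2b, gp9, ptprc and pdgfrb, named as defining markers, slc2a1b, named as a paralog, and values of a named gene in the other region, all after their values were seen. The most similar genes were ranked by Pearson r. Alternatives were array weights, a filter on genes of low mean (12840 kept, with all 10), every probe set, quantile normalization again, subtraction of array medians, the replicate number as fixed or random block, a trended robust prior, a fit to the compared groups alone, the fit without parenchyma day 2 replicate 1 and day 7 replicate 3, the other cdh5 probe set, and each array left out.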

Additional observations from a re-analysis of the deposited data

How the results depend on the processing

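No value of the 10 genes that was called changed direction under any alternative run. The 8 genes called lower and the 2 called higher in the dorsal SVZ against the parenchyma, averaged over times, gave 10 calls under every other setting and 9 to 10 without 1 array. The number of the 10 genes called in the parenchyma at day 2 was 2, and 1 with array weights, 1 with the replicate number as a fixed replicate block and 1 in a fit to the compared groups alone. The call lost in each of these fits was that of mfsd2aa. It was also lost without parenchyma day 2 replicate 1 and day 7 replicate 3, where tek was called in its place (0.90, limma adjusted p = 0.0122). The highest number called under another setting was 3. In the dorsal SVZ at day 2 it was 1, and 0 with every probe set; in the medial zone 1, and 0 with the compared groups alone; for day 7 against day 2 in the parenchyma 1, and 0 with the compared groups alone. For the unlesioned medial zone against the dorsal SVZ it was 1, and 0 with every probe set and 0 with the fixed replicate block. For the medial zone against the dorsal SVZ averaged over times it was 2, and 4 with array weights, 4 with genes of low mean left out and 4 with the compared groups alone, kdr and cldn5b being added. Without 1 array the counts were 1 to 2, 0 to 1 and 0 to 1 at day 2 in the parenchyma, the dorsal SVZ and the medial zone, 2 to 4 at day 2 in the average, 2 to 5 and 3 to 5 for the unlesioned dorsal SVZ and medial zone against the parenchyma, 0 to 0 for the unlesioned medial zone against the dorsal SVZ, 8 to 10 for the medial zone against the parenchyma and 2 to 3 against the dorsal SVZ, both averaged. A lone array left in a group was assumed to vary like the other groups. The cause of these changes was not tested, except that fewer arrays or more tests enter some fits. The replicate numbers were not taken to pair the arrays in the main fit or the permutations, and whether they do was not settled. Same-numbered arrays of different groups, of the same or of different days, had a mean correlation of deviations of 0.01 (-0.15 to 0.24, 93 pairs). Of these, 13 pairs were over 0.1, and 17 of 26 arrays correlated best with an array of their own number. Among the day 7 arrays of different regions the mean was 0.17 (0.08 to 0.22) and 8 of 9 same-numbered pairs were over 0.1, a hint from the data and not from the design. As a random replicate block the number had a correlation of -0.02 and changed no count. The second cdh5 probe set lost the call for the unlesioned medial zone (-0.90, adjusted p = 0.058). Subtracting array medians moved the median of all genes to 0.13 for the unlesioned medial zone against the parenchyma.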
